A study of Rattus norvegicus with 8 samples.

Results

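The genes described here are the neurotrophins and their receptors in the rat hypothalamus, namely Bdnf, Ntf3, Ntrk2, Ntrk3, Ngfr and Sort1. They were chosen by name, and their sites are the rows of the 8 library files whose gene symbol equals one of these names. Of the 6 genes, 5 had rows and Ntf3 had none. Together the 5 genes held 60 of the 98356 alternative polyadenylation (APA) sites, of which 64313 carried a symbol, and they are 5 of 18003 symbols. Hypothalamic RNA of adult male Long-Evans rats was read by WTTS-Seq, a method that sequences RNA from its poly(A) tail. A read therefore marks a predicted APA site, and levels were compared between genes without dividing by length. The libraries were made with PCR, so reads are not a direct count of RNA molecules. The cannabis-exposed rats (4 libraries, replicates 1, 2, 3 and 5) received vapor of cannabis plant matter with 7.8% THC and 0.5% CBD for 10 min. The air-treated controls (4 libraries, replicates 1 to 4) were placed in an identical apparatus with an unfilled vaporizer. Tissue, mediobasal hypothalamus by the series description, was taken 1 hr after exposure from rats that fed freely before it. Food was removed for the 1 hr before collection. The study names 8 rats per group for this experiment and 8 libraries in all. Which rats gave the libraries is not stated, and each library was treated as 1 animal. A normalized count is the number of reads on a site divided by the size factor of its library, and a gene total is the sum of the normalized counts of all sites with that symbol.

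Neurotrophins are secreted growth factors that bind Trk receptor tyrosine kinases, and the unprocessed precursors bind the p75 neurotrophin receptor together with sortilin. Brain-derived neurotrophic factor (Bdnf) acts through TrkB (Ntrk2), and in the hypothalamus this pair is known for restraining food intake and body weight. Ntrk2 makes a full-length kinase and a truncated receptor without the kinase, and the RNA of the truncated form ends at its own 3′ exon, upstream of the kinase exons.

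Reads per library numbered from 1159811 to 3706778, and 1 read was worth from 0.6643 to 1.986 normalized counts. A pair of libraries, air control replicate 4 and cannabis replicate 1, stood apart from the rest and had the fewest reads. Of the 6104 symbols with a mean total of at least 50 normalized counts, 825 (13.5%) were higher in both of these libraries than in any of the other 6, and 1268 (20.8%) were lower in both. Such shares are not given for other pairs of libraries, so how unusual these are is not shown. Air control replicate 4 had 1159811 reads and 26.13% of sites without a read, and cannabis replicate 1 had 1919709 and 16.95%. Next came air control replicate 2, with 1941129 reads and 10.33%. Whether the number of reads bears on the pair was not tested. The pair takes 1 library from each group, so values without it are given beside each gene. Some marker lists also differed between the groups, namely those of hypothalamus, midbrain dopamine cells and thalamus. The summed level of 9 hypothalamic genes was from 2699.5 to 5037.5 normalized counts in controls and from 6778.0 to 8891.9 after cannabis, whereas that of 8 detected midbrain dopamine genes was from 713.0 to 954.7 in controls and from 195.0 to 374.0 after cannabis. Of the 9 hypothalamic genes, 2 (Avp and Oxt) had limma P under 0.01, and so did 3 of the 8 midbrain genes (Slc6a3, Th and En1). Of all symbols, 0.278% had limma P under 0.01. These 3 midbrain genes did not overlap between the groups, beside 1.98% of all symbols. Pitx3, Nr4a2, Foxa1, Aldh1a1 and Slc18a2 each overlapped. Of the 8 midbrain genes, 7 had a log2 difference below 0 and 1 above (Foxa1, 0.748). Without Avp and Oxt, the other 7 hypothalamic genes summed to 826.3 to 1352.9 in controls and 1048.0 to 1874.7 after cannabis, and these ranges overlapped. The thalamus list of 2 genes ranged from 128.7 to 147.2 in controls and from 158.4 to 196.0 after cannabis, with 0 of its 2 genes at P under 0.01. Sums for neurons (2657.8 to 3360.4 over the 8 libraries) and astrocytes (5137.6 to 6907.9) overlapped between the groups. So did those for oligodendrocytes, microglia, endothelium, ventromedial hypothalamus, cortex and hippocampus, cholinergic cells, choroid plexus and pituitary. The part of the dissected tissue in the values below was not tested, and in bulk RNA fewer cells of a type and less RNA per cell cannot be told apart.

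Ntrk2 was by far the most abundant of the 5 genes, and none of the gene totals differed between the groups beyond the spread of the libraries. The mean total over the 8 libraries was 2508 normalized counts for Ntrk2, 161.0 for Ntrk3, 67.35 for Sort1, 50.73 for Bdnf and 45.45 for Ngfr. Ntrk2 lay above Ntrk3 in 8 of 8 libraries, from 10.3 to 31.5 times, and Ntrk3 lay above Sort1 in 8 of 8, from 1.74 to 4.02 times. Neighbours further down were not separated in each library, since Sort1 exceeded Bdnf in 6 of 8 libraries and Bdnf exceeded Ngfr in 6 of 8. Among all symbols, the total of Ntrk2 was higher than that of 99.7%, that of Ntrk3 than 86.8%, that of Sort1 than 72.0%, that of Bdnf than 66.4% and that of Ngfr than 64.2%. In limma 0 of the 5 totals had P under 0.01 and 0 had P under 0.05, where 0.278% and 2.41% of all symbols did. Adjusted P was 0.999 for each of the 5. Counts by edgeR and DESeq2 on the recovered reads were also 0 of 5 at both thresholds. The cannabis and control libraries overlapped for all 5 totals, and of all symbols 1.98% did not overlap.

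**Figure D1:**
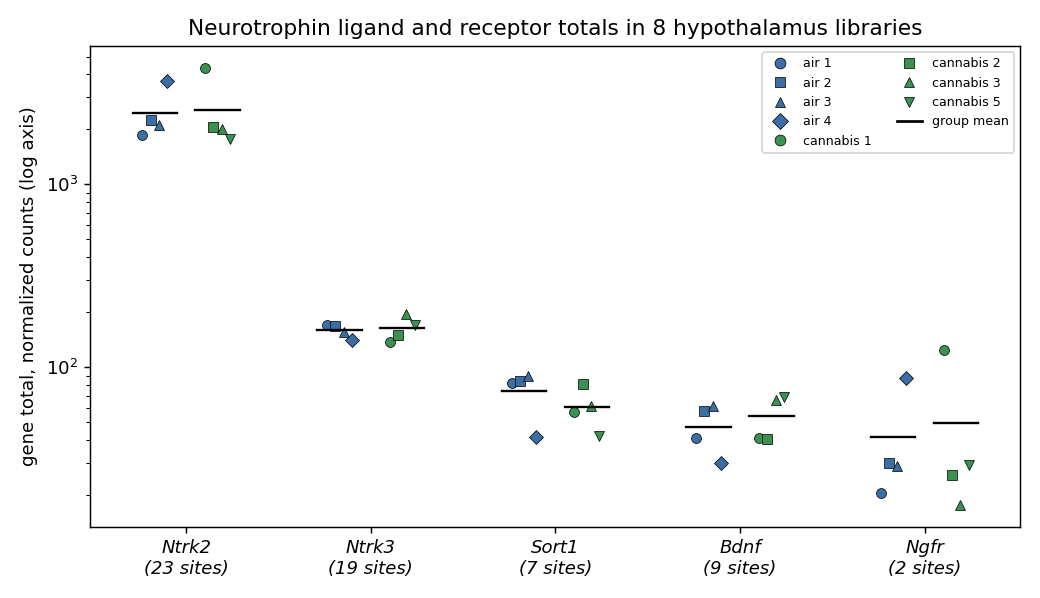
Gene totals in normalized counts (log axis) of the 5 genes, 1 point per library (blue air control, green cannabis, marker shape the replicate) and a black line for each group mean. In Ntrk2 and Ngfr the highest point of each group is air control replicate 4 or cannabis replicate 1, and the remaining points of the groups overlap.

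Bdnf, the ligand of TrkB, had few reads, spread over 9 APA sites. Its totals were 40.9, 57.5, 61.1 and 29.8 normalized counts in air control replicates 1 to 4, and 41.0, 40.5, 65.9 and 69.1 in cannabis replicates 1, 2, 3 and 5. The groups overlapped between 40.5 and 61.1, the lowest library was a control and the highest a cannabis library. From 15 to 91 reads per library stood behind these totals. The group means were 47.32 ± 14.61 (SD, n = 4) and 54.14 ± 15.52 (SD, n = 4). The fold change was 1.15 (95% confidence interval from limma 0.725 to 1.82, exact permutation P = 0.4857, two-sided). Here and below, a fold change is the limma difference in mean log2(normalized count + 1), turned back from logs. It is not the ratio of the printed means and can differ from it. Without the pair of libraries that stood apart the log2 difference was 0.119 in place of 0.201. Leaving out 1 library at a time took it from 0.002 (without air control replicate 4) to 0.34 (without air control replicate 3).

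The most-read site of Bdnf had 50.1% of the gene on average and from 32.1% to 86.7% in single libraries. Site 1 had 13.2, 31.1, 30.9 and 25.8 normalized counts in the controls and 14.9, 18.6, 29.5 and 34.6 in the cannabis libraries, in replicate order. These ranges overlapped, with a fold change of 0.966 (0.508 to 1.83, exact P = 0.9429). The share of Bdnf on site 1 was 55.9% ± 22.7 (SD, n = 4) in controls and 44.3% ± 5.72 (SD, n = 4) after cannabis, with an exact permutation P = 0.4 (two-sided). The highest share, 86.7%, was that of air control replicate 4, whose Bdnf total rests on 15 reads. The other 8 sites had mean levels from 1.77 to 5.58 normalized counts, and 7 of the 9 Bdnf sites had a log2 difference above 0, none with P under 0.05. The smallest limma P belonged to site 2, whose normalized counts averaged 4.264 ± 4.84 (SD, n = 4) among controls and 6.901 ± 2.609 (SD, n = 4) after cannabis. Its fold change, from mean log2 values, was 2.15 with an interval of 0.826 to 5.6 (exact P = 0.2571). Air control replicate 4 had 0.0 normalized counts at this site.

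Ntrk2, which codes for the Bdnf receptor TrkB, had 23 APA sites, more than 98.9% of all symbols. Totals were 1853.1, 2235.0, 2100.2 and 3689.9 normalized counts in air control replicates 1 to 4 and 4340.2, 2069.2, 1998.6 and 1774.2 in cannabis replicates 1, 2, 3 and 5. A single library in each group was high, and the other 6 lay between 1774.2 and 2235.0. The means were 2470 ± 828.8 (SD, n = 4) and 2546 ± 1203 (SD, n = 4), and the fold change from log2 values was 0.998 (0.64 to 1.56, exact P = 0.9714). Leaving out cannabis replicate 1 gave a log2 difference of -0.293 and leaving out air control replicate 4 gave 0.208. Without both it was -0.082, and none of these passed P under 0.05 in limma.

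Most of Ntrk2 was read on 3 sites, and positions could be given for these. They lie on the minus strand of chromosome 17 of Rnor_6.0. Site 1 is at chr17:6117481-6117561 and site 2 at chr17:6114591-6114612, 2939 bases further downstream in the direction of transcription. Site 3 is at chr17:5935761-5935839, another 178783 bases downstream. The site annotation put sites 1 and 2 on the same transcript and site 3 on a different one. So sites 1 and 2 are called the upstream pair and site 3 the downstream site. That order is the one known for the truncated and the full-length receptor, but the files do not name the protein form, and none is assigned here. Positions of the other Ntrk2 sites, and of the sites of the other 4 genes, were not analysed here.

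The upstream pair held most of Ntrk2, and its 2 sites were high and low in opposite ways across the libraries. Site 1 had 1171.8, 1495.2, 1346.2 and 3114.0 normalized counts in the controls and 3832.3, 1237.6, 1018.5 and 980.8 in the cannabis libraries. Site 2 had 277.8, 322.0, 441.8 and 109.2 in the controls and 134.1, 463.7, 487.1 and 435.5 after cannabis. Air control replicate 4 and cannabis replicate 1 were thus the highest libraries on site 1 and the lowest on site 2. Site 1 exceeded site 2 by 28.5 and 28.6 times in these libraries, and by 4.22, 4.64 and 3.05 times in air control replicates 1 to 3 and 2.67, 2.09 and 2.25 times in cannabis replicates 2, 3 and 5. Outside the pair of libraries, the 3 controls were all above the 3 cannabis libraries in this ratio. That ordering was noticed after the values were seen, and 3 libraries against 3 cannot give an exact P below 0.10. With all 8 libraries the log2 ratio was 2.68 ± 1.46 (SD, n = 4) in controls and 2.12 ± 1.82 (SD, n = 4) after cannabis, with an exact permutation P = 0.4857 (two-sided). With the 6 libraries the log2 difference was -0.749 (exact permutation P = 0.1), and without cannabis replicate 1 alone it was -1.47 (exact permutation P = 0.0571).

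Neither upstream site passed the test between the groups in the 8 libraries. The fold change was 0.896 for site 1 (0.543 to 1.48, exact P = 0.6571) and 1.32 for site 2 (0.728 to 2.4, exact P = 0.4857). Without cannabis replicate 1 the log2 differences were -0.617 for site 1 and 0.845 for site 2, both with limma P under 0.05 but short of the threshold of 0.01. Without both libraries they were -0.31 and 0.437, and neither passed 0.05.

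The downstream site was close in the 2 groups. It had 200.3, 249.0, 188.7 and 295.9 normalized counts in the controls and 258.3, 227.2, 219.4 and 195.1 in the cannabis libraries. The ranges overlapped over most of their width, and the fold change was 0.975 (0.652 to 1.46, exact P = 0.8571). Its share of Ntrk2 was 10.8%, 11.1%, 8.98% and 8.02% in the controls and 5.95%, 11.0%, 11.0% and 11.0% after cannabis. The lowest share of each group belonged to a library that was high on site 1. On average the downstream site held 9.74% ± 1.49 (SD, n = 4) and 9.73% ± 2.52 (SD, n = 4) of the gene, with an exact permutation P = 1.0 (two-sided). Without the pair of libraries the difference was 0.674 percentage points (exact permutation P = 0.4). The upstream pair summed to between 6.86 and 15.4 times the downstream site, and the log2 of that quotient was 3.1 ± 0.291 (SD, n = 4) in controls and 3.12 ± 0.549 (SD, n = 4) after cannabis (exact permutation P = 0.8857).

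**Figure D2:**
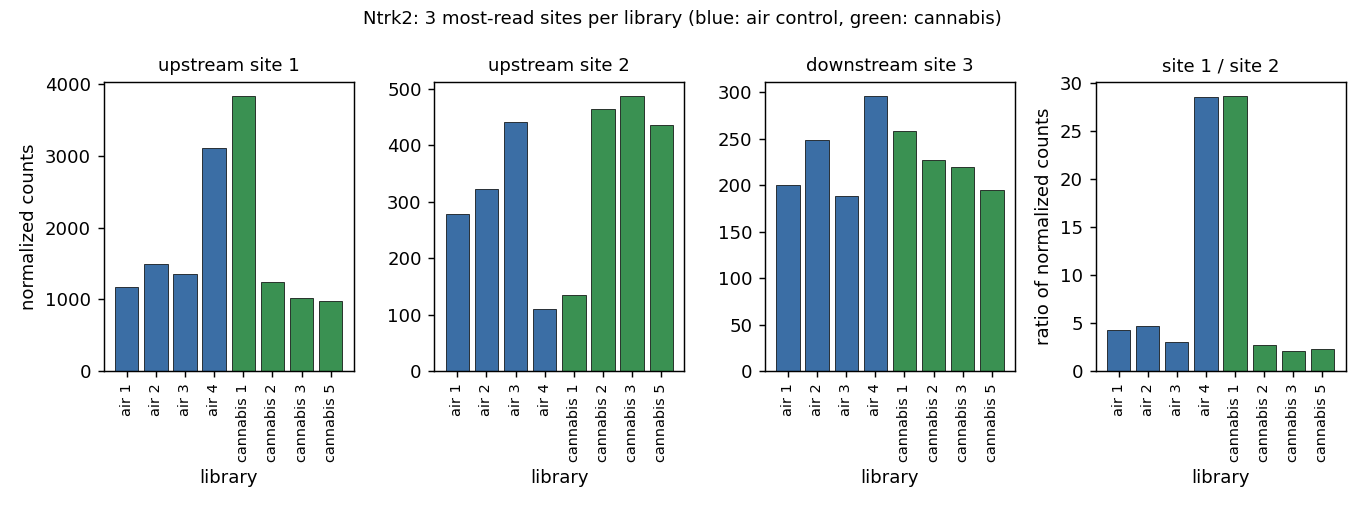
Normalized counts of the 3 most-read Ntrk2 sites and the ratio of site 1 to site 2, 1 bar per library (blue air control, green cannabis). Air control replicate 4 and cannabis replicate 1 reach 3114.0 and 3832.3 on site 1 and fall to 109.2 and 134.1 on site 2, while the downstream site stays between 188.7 and 295.9.

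Of the remaining 20 Ntrk2 sites, 6 had a mean of at least 10 normalized counts and 14 had means from 2.22 to 8.57. The 9 sites with a mean of at least 10 held 96.9% of the gene on average and from 94.8% to 99.1% in single libraries. Site 7 had 73.8 normalized counts in cannabis replicate 3 and from 0.0 to 9.6 in the other 7 libraries, a single library against all the rest. Site 6 ran from 0.0 to 24.8 in controls and from 14.6 to 22.3 after cannabis, and its log2 difference was 1.02 in limma (-0.50 to 2.53, exact P = 0.5143), 0.332 by edgeR and 0.299 by DESeq2. Without air control replicate 2, the library at 0.0, it was -0.032. The smallest limma P among all 60 sites belonged to Ntrk2 site 15, with 5.8, 4.8, 4.0 and 17.9 normalized counts in the controls and 2.5, 1.3, 5.9 and 0.0 after cannabis. Its log2 difference was -1.52 (exact P = 0.1143, limma adjusted P = 1.0), the groups overlapped, and it was listed at under 10 normalized counts on average. It is named because of that P, after its values were seen. Leaving out cannabis replicate 3 took it to -1.96, past P under 0.01 in limma, and with the replicate number as a block no site of the 5 genes had P under 0.05.

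Ntrk3, which codes for TrkC, the receptor of neurotrophin-3, was the steadiest of the 5 genes. Its totals were 169.6, 168.8, 156.4 and 141.0 normalized counts in air control replicates 1 to 4 and 137.8, 149.5, 194.8 and 169.7 in cannabis replicates 1, 2, 3 and 5. The highest library exceeded the lowest by 1.41 times, and the lowest 2 were the pair that stood apart. The standard deviation within groups was 0.177 on the log2 scale, and of the 3322 symbols within 2 times of its total 7.74% had a lower one. Means were 159.0 ± 13.4 (SD, n = 4) and 163.0 ± 25.0 (SD, n = 4), and the fold change was 1.02 (0.754 to 1.38, exact P = 0.8286). The interval leaves room for a fall to 0.754 times or a rise to 1.38 times the control level. The log2 difference was 0.047 without the pair of libraries. The ligand Ntf3 had no row, and the neurotrophin gene Ntf4 had none either. A site had to reach 16 reads to be listed, so a lower level was not detectable here.

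The reads of Ntrk3 were spread over 19 sites, and the 4 sites with a mean of at least 10 normalized counts held 55.7% of the gene on average (46.8% to 63.4%). Site 1 had 59.2, 56.3, 44.3 and 37.7 normalized counts in the controls and 29.8, 35.9, 54.1 and 46.9 after cannabis, which overlapped. Its share of the gene was 34.9%, 33.3%, 28.3% and 26.8% in the controls and 21.6%, 24.0%, 27.8% and 27.6% in the cannabis libraries. Those shares overlapped in a single control, replicate 4. The means were 30.8% ± 3.91 (SD, n = 4) and 25.3% ± 2.98 (SD, n = 4), with an exact permutation P = 0.1143 (two-sided), the smallest for a share among the sites with a mean of at least 10. In the limma fit of site usage, the log2 ratio of a site to the rest of its gene, the difference was -0.39 (-1.22 to 0.43, adjusted P = 0.999). Site 2 was at 13.46 ± 6.073 (SD, n = 4) and 21.68 ± 11.52 (SD, n = 4) normalized counts, a fold change of 1.51 (0.724 to 3.15, exact P = 0.2857).

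Ngfr, the p75 receptor that binds neurotrophins and their precursors, varied the most between libraries. Its totals were 20.5, 29.9, 28.9 and 87.4 normalized counts in air control replicates 1 to 4 and 124.2, 25.9, 17.7 and 29.2 in cannabis replicates 1, 2, 3 and 5. The high libraries were air control replicate 4 and cannabis replicate 1, the same pair as for Ntrk2, with 44 and 100 reads. The highest library was 7.01 times the lowest, and the standard deviation within groups, 1.058 on the log2 scale, was above that of 97.3% of the 5146 symbols within 2 times of its total. Means were 41.66 ± 30.77 (SD, n = 4) and 49.25 ± 50.19 (SD, n = 4), and the fold change from log2 values was 1.02 (0.445 to 2.34, exact P = 0.9714). The log2 difference was -0.128 without the pair, -0.555 without cannabis replicate 1 alone and 0.456 without air control replicate 4 alone. Of its 2 sites, site 1 held 87.5% on average, from 70.5% upwards. Site 2 was without reads in cannabis replicates 2 and 5, and it had 25.8 and 16.1 normalized counts in the pair that stood apart and from 0.0 to 4.8 in the other 6 libraries.

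Sort1, which codes for sortilin, a sorting receptor that binds the precursors and the p75 receptor, had a total that was lower on average after cannabis, within the spread of the libraries. Its totals were 81.9, 83.8, 90.0 and 41.7 normalized counts in air control replicates 1 to 4 and 57.1, 81.0, 61.0 and 42.2 in cannabis replicates 1, 2, 3 and 5. The first 3 controls were all above the 4 cannabis libraries, and control replicate 4 was below them. Means were 74.34 ± 22.03 (SD, n = 4) and 60.35 ± 15.99 (SD, n = 4), and the fold change was 0.827 (0.528 to 1.3, exact P = 0.3714). The log2 difference went from -0.274 to -0.527 without air control replicate 4, to -0.118 without cannabis replicate 5 and to -0.513 without the pair, none with limma P under 0.05. Of the 7 Sort1 sites, 6 had a log2 difference below 0, and their median was -0.303. Site 1 had a share of 40.8% ± 8.29 (SD, n = 4) and 46.4% ± 4.15 (SD, n = 4) of the gene (exact permutation P = 0.2857). Site 2 was at 32.2, 34.7, 23.5 and 7.9 normalized counts in the controls and 17.4, 19.9, 18.7 and 6.1 after cannabis. There too the first 3 controls exceeded each cannabis library, and control replicate 4 lay among them. Its fold change was 0.676 (0.32 to 1.43, exact P = 0.4). Without the pair its log2 difference was -1.10 and without air control replicate 4 alone -1.01, both with limma P under 0.05 and not under 0.01, whereas without cannabis replicate 5 it was -0.2.

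**Figure D3:**
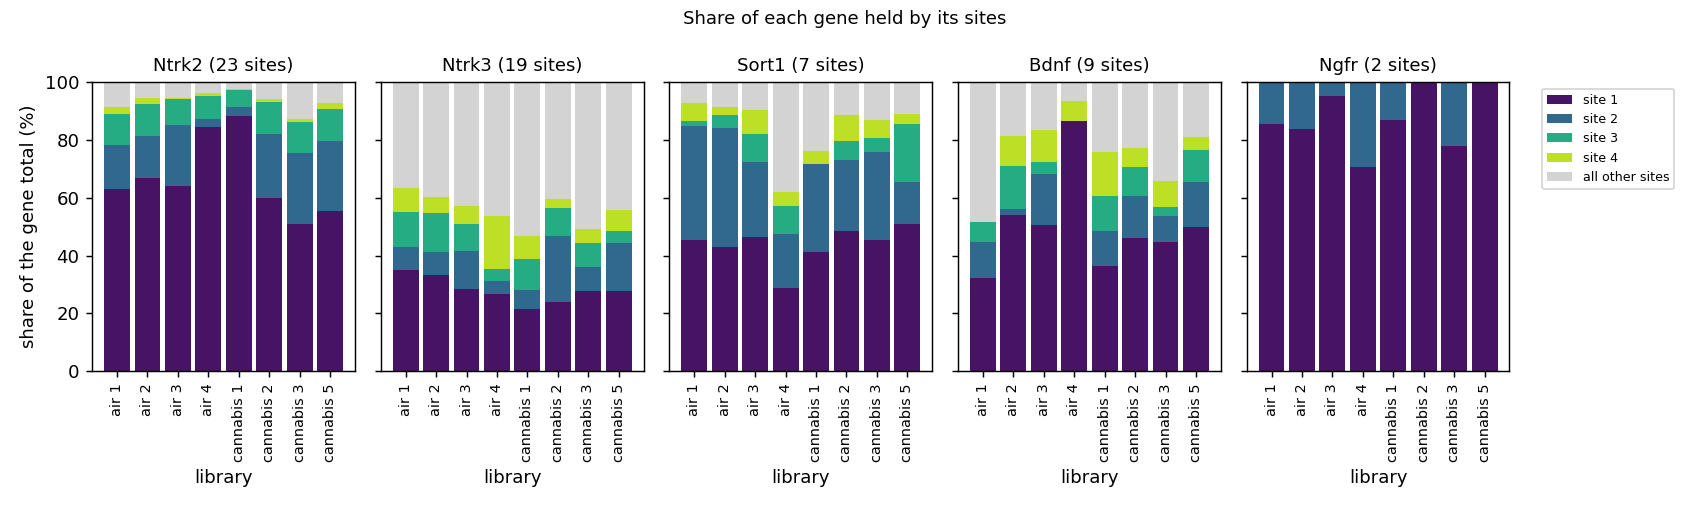
Share of each gene total (percent) on its 4 most-read sites and on all its other sites, 1 bar per library. The first site dominates Ntrk2 and Ngfr, while Ntrk3 and Bdnf are spread over many sites, and site 1 of Ntrk2 takes 84.4% and 88.3% in air control replicate 4 and cannabis replicate 1 against 51.0% to 66.9% in the other libraries.

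Over the 60 sites of the 5 genes, 33 had a log2 difference above 0 and 27 below, with a median of 0.09. In limma 0 sites had P under 0.01 and 1 had P under 0.05, where 0.381% and 3.03% of all 98356 sites did. Both edgeR and DESeq2 gave 0 of 60 at either threshold. The groups overlapped at each of the 60 sites, and 2.0% of all sites did not overlap. Reads were present in every library at 32 of the 60 sites. The 17 sites with a mean of at least 10 normalized counts had site usage differences from -0.74 to 1.17 on the log2 scale, the smallest P being 0.17 (adjusted P = 0.999). So 0 of the 17 site usages were called at P under 0.01, where 0.307% of the 14643 tested sites were.

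**Figure D4:**
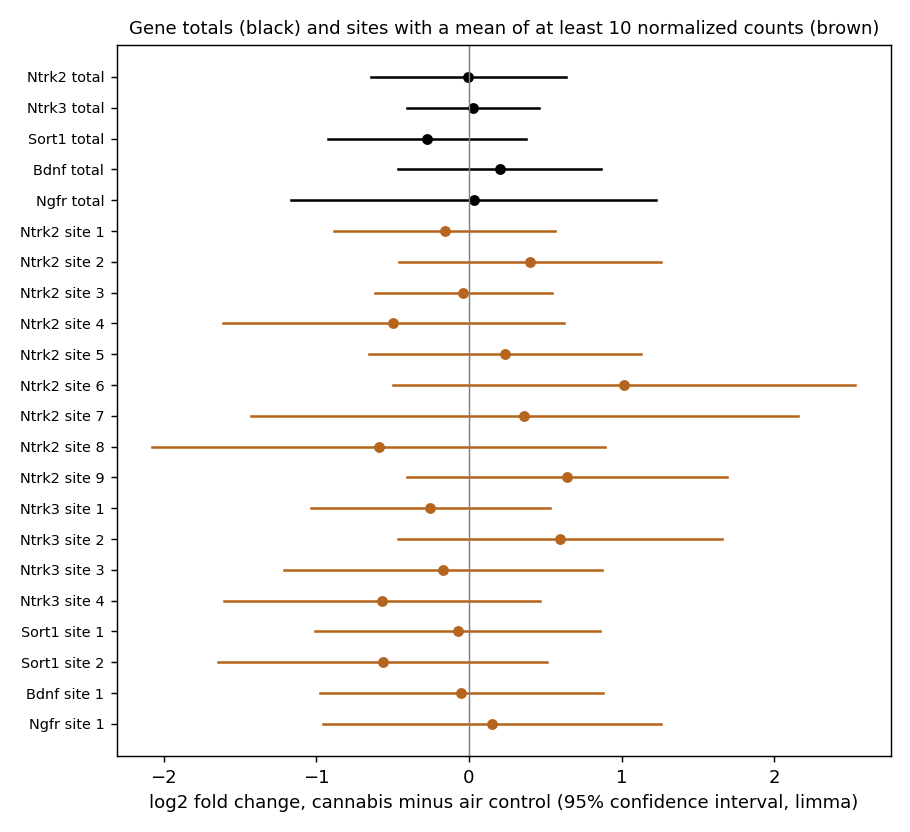
Log2 fold changes, cannabis minus air control, of the 5 gene totals (black) and the 17 sites with a mean of at least 10 normalized counts (brown), with 95% confidence intervals from limma. Each interval crosses 0, the narrowest total is that of Ntrk3 (-0.41 to 0.46) and the widest that of Ngfr (-1.17 to 1.23).

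Other genes of neurotrophin signaling were taken from a list of 60 symbols, ordered by role, of which 52 had rows. In limma 0 of the 52 had P under 0.01 and 1 had P under 0.05, beside 0.278% and 2.41% of all symbols. Above 0 were 33 and below 0 were 19, and the median log2 difference was 0.109 beside 0.053 over all symbols. The relatives of sortilin, which sort proteins between membranes, had log2 differences of -0.24 for Sorl1, 0.26 for Sorcs1, -0.44 for Sorcs2 and 0.19 for Sorcs3, with limma P from 0.239 upwards. Sorcs2 ran from 67.5 to 291.7 normalized counts in controls and from 28.4 to 214.8 after cannabis.

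Among the 18 detected adaptors of Trk receptors, 10 were above 0 and 8 below, and the smallest P was 0.127. Kidins220, a membrane scaffold that binds Trk receptors, had 1238.4 to 1966.1 normalized counts in controls and 1281.4 to 2102.4 after cannabis, a fold change of 1.13 (0.805 to 1.58, exact P = 0.4286). The 8 detected partners of the p75 receptor had a median of 0.312, with 6 above 0 and 2 below. The largest was Maged1, an adaptor of the p75 receptor, at 106.7, 65.8, 167.2 and 37.7 normalized counts in controls and 55.9, 292.3, 135.8 and 381.0 after cannabis. The groups overlapped, and its log2 difference was 1.05 (-0.12 to 2.23, exact P = 0.2286). Without cannabis replicate 1 it was 1.59, and without the pair that stood apart 1.22, both past P under 0.01 in limma. By edgeR and DESeq2 it was the 1 gene of the list with P under 0.05. Bex3, which binds the intracellular part of the p75 receptor, had a log2 difference of 0.66 (-0.01 to 1.32, exact P = 0.1143). Without air control replicate 4 it was 0.895, past P under 0.01 in limma. Maged1 and Bex3 are named for these values, after they were seen.

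Of the 3 detected genes listed for the cleavage of precursors, Furin, a protease of the secretory pathway, had a fold change of 1.17 (0.804 to 1.69, exact P = 0.3429). In the kinase cascade downstream of Trk receptors, 12 of 18 genes were above 0 and 6 below. Rps6ka2, a ribosomal S6 kinase, was the gene with P under 0.05. It had 45.3, 27.5, 36.9 and 41.7 normalized counts in controls and 69.5, 49.8, 52.2 and 59.9 after cannabis, and these did not overlap. Its log2 difference was 0.61 (0.05 to 1.17, limma adjusted P = 0.999). The exact permutation P was 0.0286, the smallest that 4 libraries against 4 can give. The test did not give Rps6ka2 P under 0.05 without air control replicate 2 or 3, or without cannabis replicate 1 or 5. It did not without the pair that stood apart, by edgeR or by DESeq2 either. The same held with the replicate block, which rests on 3 pairs of libraries with the same number. The other gene whose groups did not overlap was Plat, the tissue plasminogen activator, with totals of 8.207 ± 2.158 (SD, n = 4) and 13.46 ± 3.03 (SD, n = 4) normalized counts (fold change 1.58, 0.895 to 2.8, exact P = 0.0286). Thus 2 of the 52 genes did not overlap, where 1.98% of all symbols did not.

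**Figure D5:**
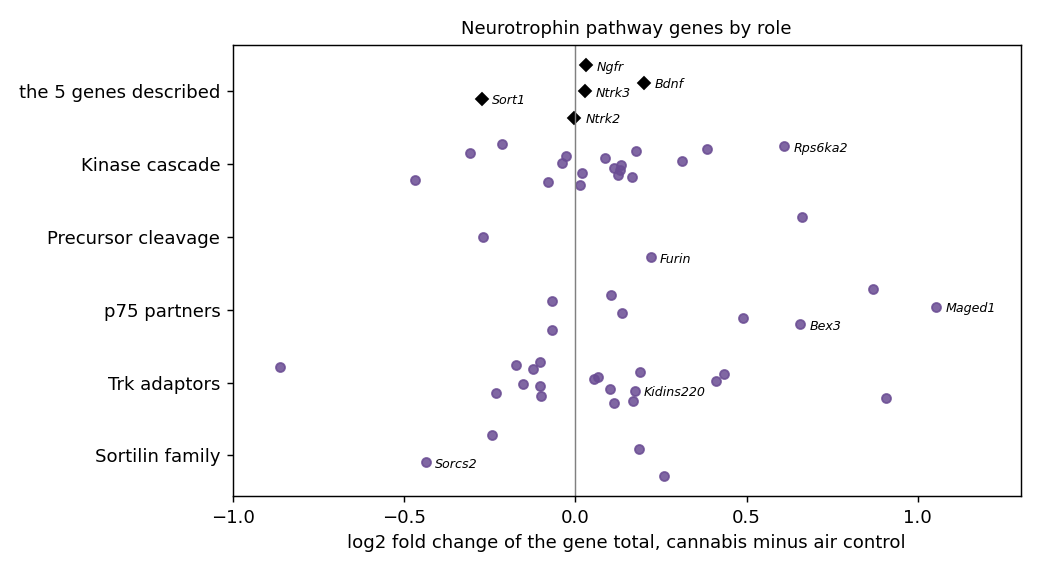
Log2 fold changes of gene totals, cannabis minus air control, for the 5 genes (black diamonds) and other genes of neurotrophin signaling by role (purple circles). The 5 genes lie between -0.27 and 0.20, and the points on the far right and left of the adaptors and p75 partners reach -0.86 and 1.05.

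The genes whose totals varied most like those of the receptors were sought among the 6104 symbols with a mean total of at least 50 normalized counts, as Pearson's r of log2 values over the 8 libraries. For Ntrk2 these were RGD1562618 (r = 0.98), Map3k12 (0.98) and Eif4a1 (0.976). For Ntrk3 they were Mpp3 (0.961), Rad23b (0.961) and Txnrd1 (0.953), and Cox5b (0.94) and Atp5j2 (0.939) were among them for Sort1. For Bdnf they were Rgs19 (0.958), Gmpr2 (0.95) and Dync1i1 (0.947). The points are the same 8 libraries for each gene and include the pair that stood apart, so the values are a description of these libraries.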

How the data were processed

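RNA from the hypothalamus of air-treated and cannabis-exposed rats was sequenced by WTTS-Seq, in 4 libraries per group, each treated as 1 rat. The authors cleaned the reads (FASTX Toolkit, removal of leading Ts), mapped them to Rnor_6.0 with TMAP, clustered neighbouring ends into sites, required 16 reads for a site and took genes from Cuffcompare. The deposited signal is the normalized count per site, that is reads over a DESeq2 size factor, with 1 unpooled file for each library. Reads were recovered by dividing by the value of 1 read, and each value was whole within 0.001 reads. Of 98356 sites, 34043 had no symbol, and they entered the site fit only. Every member site was tested, and no filter on low values was used for totals or site levels. Positions of 3 Ntrk2 sites were read from the study's site table, matched by symbol and the 8 values.

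Gene totals, site levels and site usage were fitted with limma 3.58.1 (R 4.3.3, eBayes with trend) on log2(normalized count + 1), cannabis against control, which understates changes of low values. P under 0.01 was called, as in the study, and adjusted P is by Benjamini-Hochberg over all features of a fit. Site usage took sites with a mean of at least 10 in genes with at least 2 sites. Single values had exact permutation tests (two-sided, smallest P 0.0286). Python 3.11.15, pandas 2.3.3, numpy 2.4.6, scipy 1.17.1 and matplotlib 3.10.9 were used. Alternatives were edgeR 4.0.16 and DESeq2 1.42.0 on the recovered reads, other pseudocounts, filters and scaling, a replicate block, and leaving out libraries. On simulated reads of this comparison with 200 features changed by 2 on the log2 scale (dispersion 0.2), 98.0% of them were called among 18003 gene totals and 91.5% among 98356 sites. For site usage, 59.8% of 199 were called among 14626 simulated sites. The changed features all had means of at least 20 normalized counts, and no simulated libraries stood apart. So these percentages do not cover member sites with a mean under 20. Among those are the 43 with a mean under 10 and some of the named sites. Of unchanged features, 0.81% of gene totals and 0.94% of sites were called in the simulation.

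Named were the members, their sites with a mean of at least 10 or, failing that, the most-read site, and listed pathway genes. A few listed genes are left unnamed and are still part of the counts over lists. Members and lists were chosen with earlier results of these data known. The labels do not say whether the numbers mark a shared day, and the main fits do not model one. P-values set the difference between the groups against the spread between these libraries.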

Additional observations from a re-analysis of the deposited data

Results flagged for a closer look

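The highest or lowest library of a group was set against the rest of its group by Dixon's criterion at 95%, for the gene totals and the well-read sites. Chance alone gives such a value in about 5% of groups if values are normally distributed. Normalized counts were used without logs, and a gene total contains its sites, so the groups are not independent and that 5% is no measure for the count below. Of 44 groups, 9 had one, and 8 of the 9 belonged to air control replicate 4 or cannabis replicate 1, the pair of libraries that also stood apart over many other genes. Cannabis replicate 1 was the highest of its group for the totals of Ntrk2 (4340.2 normalized counts) and Ngfr (124.2), for Ntrk2 site 1 (3832.3) and for Ngfr site 1 (108.0), and the lowest for Ntrk2 site 2 (134.1). Air control replicate 4 was the highest of its group for the Ngfr total (87.4) and Ntrk2 site 1 (3114.0), and the lowest for the Sort1 total (41.7). Cannabis replicate 3 was the highest of its group for Ntrk2 site 7 (73.8). What sets these libraries apart was not tested.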

How the results depend on the processing

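For 29 tested values of the 5 genes and their sites, 394 of 450 alternatives kept the direction and the side of the threshold, and 56 turned the direction of a value that was not called. The smallest P under any of them was 0.0317. Causes of the turns were not tested. The mean correlation of deviations was -0.079 for libraries with the same replicate number and 0.026 for different numbers. The same number gave 3 pairs (-0.271 to 0.134), too few to tell whether the numbers pair the libraries. The replicate block rests on these 3 pairs, and air control replicate 4 and cannabis replicate 5 add nothing to its differences. With the replicate block the log2 differences turned to -0.128 for the Bdnf total, 0.348 for Ntrk2, -0.052 for Ntrk3, 0.345, -0.127 and 0.15 for the levels of Ntrk2 sites 1, 2 and 3, and 0.303 and -0.47 for the usage of Ntrk2 sites 1 and 2. By edgeR they turned to 0.00043 for the Ntrk2 total, -0.015 for Ntrk3 and 0.042 for Ntrk2 site 1, and by DESeq2 to -0.021 for Ntrk3. Without the pair of libraries that stood apart they turned to -0.128 for the Ngfr total, to 0.184, 0.016, 0.606 and -0.068 for the levels of Bdnf site 1, Ntrk2 sites 3 and 8 and Ngfr site 1, to 0.08 and 0.108 for the usage of Bdnf site 1 and Ntrk2 site 3, to 0.674 percentage points for the share of the downstream Ntrk2 site and to -0.141 for the upstream pair over it. Of the 3 Ntrk2 sites alone the downstream site differed by 0.145 points.

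Leaving out each library in turn gave these ranges of the log2 difference. Totals ran from 0.002 to 0.34 for Bdnf, from -0.527 to -0.118 for Sort1, from -0.293 to 0.208 for Ntrk2, from -0.062 to 0.103 for Ntrk3 and from -0.555 to 0.456 for Ngfr. Site levels ran from -0.323 to 0.15 for Bdnf site 1, from -0.617 to 0.148, -0.007 to 0.845, -0.131 to 0.084, -0.032 to 1.532, -0.734 to 1.341 and -1.196 to 0.056 for Ntrk2 sites 1, 2, 3, 6, 7 and 8, from -0.552 to 0.092 for Ntrk3 site 3, from -0.414 to 0.547 for Ngfr site 1 and from -0.474 to 0.101 for Sort1 site 1. Usage ran from -0.955 to 0.085, -0.176 to 1.319 and -0.133 to 0.207 for Ntrk2 sites 1, 2 and 3. The downstream share ran from -0.584 to 1.25 points, the upstream pair over the downstream site from -0.255 to 0.132 and site 1 over site 2 from -1.47 to 0.156.

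Counts over all features at P under 0.01 moved from 50 gene totals to 24 with the block, 29 at a mean of at least 10, 76 by DESeq2 and 30 to 90 with a library left out, from 375 sites to 229, 44 at a mean of at least 10 (fewer sites tested) and 227 to 617, and from 45 site usages to 29, 77 and 24 at site means of at least 5 and 20, and 29 to 79. Member sites called were 0 to 1 (Ntrk2 site 15, without cannabis replicate 3) and listed pathway genes 0 to 1 with a library left out, with 1 such gene without the pair and 1 at P under 0.05. From 15 to 91 reads of Bdnf per library, and from 18 to 100 of Ngfr, limit what could be seen in these 2 genes.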
